A study of Mus musculus with 12 samples.

Results

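The hippocampus of stressed mice was compared with that of unstressed mice irrespective of drug treatment. The comparison covers 8 of the 12 libraries of the study, the 4 labelled Model and the 4 labelled Treatment, against the 4 labelled Control, and was read from the group labels alone. Every mouse was a male C57BL/6 animal bought at an age of 6 to 8 weeks. Control mice were left unstressed and given saline. Those of Model were exposed for 28 days to chronic unpredictable mild stress, in which the mild stressor changes from day to day, and were also given saline. Treatment mice had the same 28 days of stress, and from day 15 they also received 20 mg/kg of poricoic acid A by gavage once a day for 14 days. All stressed mice therefore share the stress schedule, and only those of Treatment received the compound, a triterpenoid from the fungus Poria cocos. No group received the compound without stress. The change of a gene is given on the log2 scale, as the average of the Model and Treatment means minus the Control mean, with its standard error (SE).

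Chronic mild stress in rodents lowers the intake of sweet solutions and is used as a model of depression. The hippocampus carries many receptors for stress hormones, and its excitatory neurons respond to activity with waves of immediate early genes. Cells whose proteins misfold raise chaperones through separate programmes, the unfolded protein response for the endoplasmic reticulum (ER) and the heat shock response for the cytosol. Chaperone genes of both compartments and activity genes are described first.

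The stressed libraries held between 18169849 and 23665426 estimated counts each, and all 12 held between 17083260 and 27479083. The 9 markers of hippocampal fields that were checked lay between 38.5 and 222 CPM, library-scaled counts, in every library. Markers of tissue that adjoins the hippocampus were present too: none of the 6 defining markers of choroid plexus epithelium was at 0 in any library, and these ranged from 2.59 to 2015 CPM. The library names of Treatment replicates 2 and 3 carry the numbers 1631 and 1636, apart from the other 10. The labels give 4 mice per group for sequencing without tying each library to a separate mouse, so p-values measure the spread between these libraries. In tissue that holds many cell types, fewer cells of a type and less RNA per cell cannot be told apart.

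Stress went with small changes in 41 genes, of which 19 rose and 22 fell. The genes that rose were led in size by Hspb1, a small heat shock protein, Fosb, an AP-1 transcription factor, Nptx2 and Homer1, which act at excitatory synapses, and the ER protein Creld2. Of 12 fits that each left out 1 library, Fosb passed in 11, Nptx2 in 4, Homer1 and Creld2 in 3 each and Hspb1 in 2. Among those that fell were 2 genes of the cells that make myelin, 2 of the choroid plexus and 2 of the extracellular matrix. The wider myelin list of 29 genes was split, with 14 positive and 15 negative. Of 18600 genes tested, 41 is 0.220%; the 19 higher genes are 0.102% and the 22 lower genes 0.118% (edgeR quasi-likelihood test, Benjamini-Hochberg adjusted p under 0.05). The size of the changes lay between 0.24 and 1.62, with a median of 0.51 (0.40 among the genes that rose and 0.63 among those that fell). The largest rise was 1.94-fold, and 5 genes fell at least 2-fold. Over all 18600 genes, 8787 changes were positive and 9813 negative. These shares are the background for the counts of each gene list below.

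In 31 of the 41 genes the 8 stressed libraries lay entirely to one side of the 4 Control libraries, 16 above and 15 below. Over all genes tested this held for 304, or 1.63%, with 173 above (0.930%) and 131 below (0.704%). Passing in the same libraries favours genes without overlap, and the rule for naming the largest shared changes asks for it. The higher share among the 41 is therefore a description. The evidence per gene was mostly close to the threshold: 27 of the 41 had an adjusted p of at least 0.04, and the largest was 0.0498. An unadjusted p under 0.05 was reached by 2470 genes. The count depended on single libraries. It was 1, 14, 8 and 90 without Control replicates 1, 2, 3 and 4, it was 16, 14, 12 and 9 without Model replicates 1 to 4, and it was 13, 109, 60 and 36 without Treatment replicates 1 to 4. The balance of directions moved too: 14 rose and 76 fell without Control replicate 4, 43 rose and 66 fell without Treatment replicate 2, 37 rose and 23 fell without Treatment replicate 3, and 24 rose and 12 fell without Treatment replicate 4. With both of Treatment replicates 2 and 3 left out it was 138, and 39 of the 41 were among those. All 41 kept their direction in each of these fits.

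**Figure D1:**
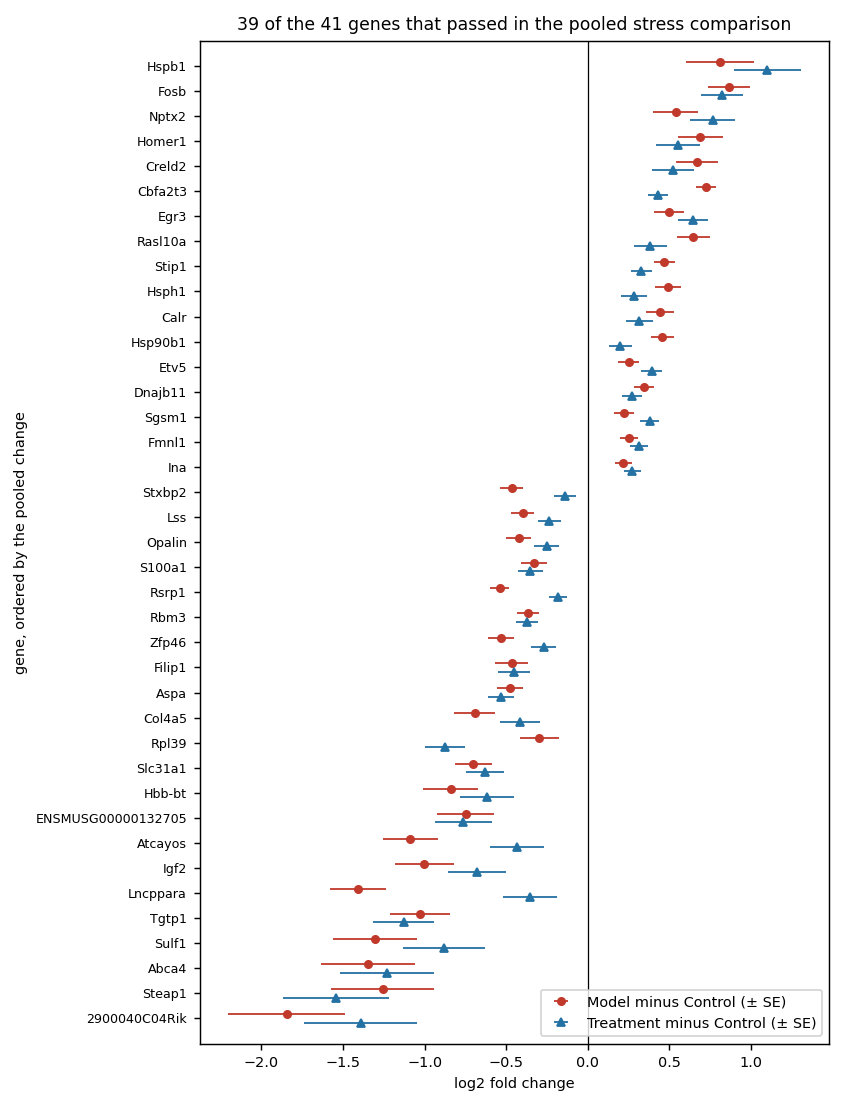
Log2 fold change of 39 of the 41 genes in Model minus Control (circles) and Treatment minus Control (triangles), with bars of 1 SE, ordered by the pooled change. Both groups share the 4 Control libraries; all 39 genes lie on the same side of 0 in both, which the pooled contrast favours.

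Both stressed groups were set against Control separately to see what each contributed. Alone, Model minus Control had 147 genes past the threshold (0.790%) and Treatment minus Control 19 (0.102%). These comparisons use the same Control libraries, so that agreement between them is not independent. Among the 41 genes the change was larger in Model for 26 and larger in Treatment for 15. The smaller of both changes was at least 0.5 times the larger in 35 genes. Passing in the pooled comparison favours such genes too, so this count is a description.

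Folding factors of the ER formed 1 of 2 groups of chaperones with members that rose. Of 39 measured genes of a list of ER chaperones and unfolded protein response genes, 4 rose, 0 fell and 35 did not pass. Thus 10.3% of the list passed, where 0.220% of all genes tested did. The median change of the list was 0.16, where that of all genes tested was -0.01, and 33 members were positive. The medians were 0.21 in Model and 0.12 in Treatment. DESeq2, an alternative test, passed 14 higher and 1 lower, where it passed 420 of all 18600 genes. In limma-voom, a further test, 1 rose and 0 fell, and with the deposited FPKM 0 passed. The 4 genes that rose encode proteins that work inside the ER: Creld2 is a disulfide isomerase induced by ER stress, Calr (calreticulin) a calcium-binding chaperone of glycoproteins, Hsp90b1 the Hsp90 of this compartment, and Dnajb11 a partner of the main ER chaperone Hspa5.

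Creld2 stood at 7.96, 8.07, 9.84 and 8.22 CPM in the Control libraries (replicates 1 to 4 throughout). It stood at 13, 12.5, 12.5 and 16.0 CPM in Model and at 10.9, 12.2, 15.5 and 10.3 CPM in Treatment. Every stressed library was above every Control library, and Model replicate 4 and Treatment replicate 3 were the highest of their groups. The pooled change was 0.60 ± 0.12 (edgeR, adjusted p = 0.0484), with 0.67 in Model and 0.52 in Treatment. Calr, which lies on chromosome 8 from 85568479 to 85573563 (GRCm39), was at 298, 303, 342 and 302 CPM in Control. Its Model values were 420, 394, 409 and 469 CPM and its Treatment values 356, 352, 461 and 380 CPM. Again no stressed library reached down into the Control range, and the same 2 stressed libraries were highest. Calr rose by 0.38 ± 0.07 (edgeR, adjusted p = 0.0484). Hsp90b1 rose by 0.33 ± 0.06 with the same adjusted p, but by 0.46 in Model against 0.20 in Treatment. Its Control libraries reached 313 CPM and its lowest Treatment libraries were at 308 and 312 CPM, so those groups overlapped. Dnajb11 rose by 0.31 ± 0.05 (edgeR, adjusted p = 0.0401), from 38.7 to 41.9 CPM in Control to 45.3 to 53.9 CPM in the stressed libraries, with no overlap.

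Several further members lay just short of the threshold, and they were chosen after their values were seen. Hspa5, the most central chaperone of the ER, was at 174 to 211 CPM in Control, 270 to 448 CPM in Model and 218 to 345 CPM in Treatment, without overlap (0.65 ± 0.13, edgeR adjusted p = 0.0576). Sdf2l1, which keeps ER DnaJ proteins in solution, differed by 0.88 ± 0.18 (edgeR, adjusted p = 0.0576) and Pdia6, a disulfide isomerase, by 0.51 ± 0.11 (edgeR, adjusted p = 0.0633). Manf, a secreted protein of the ER stress response, differed by 0.50 ± 0.10 (edgeR, adjusted p = 0.0633). Its Treatment replicate 4, at 27.1 CPM, lay within the Control range of 23.8 to 29.2 CPM. In 10 of the 39 members the stressed and Control libraries did not overlap, where this held for 304 of all 18600 genes tested (1.63%). The count is a description.

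Promoters of the genes that rose are shown because 3 of them hold the letters of the ER stress element, at which Atf6 acts with the factor NF-Y. They are the 250 bases before the RefSeq start (GRCm38.p6), 5′ to 3′ along the gene, and capitals mark matches, on either strand, to the letters CCAAT and CCACG with 9 bases of any kind between them. Hsp90b1 is from chr10:86705445-86705694 (minus strand), Creld2 from chr15:88819396-88819645 (plus strand) and Calr from chr8:84846932-84847181 (minus strand).
Hsp90b1: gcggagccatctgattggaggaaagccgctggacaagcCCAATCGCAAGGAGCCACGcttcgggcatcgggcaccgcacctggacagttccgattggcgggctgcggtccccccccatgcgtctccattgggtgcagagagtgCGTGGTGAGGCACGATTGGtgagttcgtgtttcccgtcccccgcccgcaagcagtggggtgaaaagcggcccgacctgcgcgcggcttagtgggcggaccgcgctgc
Creld2: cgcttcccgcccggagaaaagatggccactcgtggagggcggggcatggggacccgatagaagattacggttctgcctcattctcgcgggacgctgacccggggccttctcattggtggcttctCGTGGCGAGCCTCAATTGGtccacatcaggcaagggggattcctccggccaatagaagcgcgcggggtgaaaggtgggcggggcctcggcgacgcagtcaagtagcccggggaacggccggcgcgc
Calr: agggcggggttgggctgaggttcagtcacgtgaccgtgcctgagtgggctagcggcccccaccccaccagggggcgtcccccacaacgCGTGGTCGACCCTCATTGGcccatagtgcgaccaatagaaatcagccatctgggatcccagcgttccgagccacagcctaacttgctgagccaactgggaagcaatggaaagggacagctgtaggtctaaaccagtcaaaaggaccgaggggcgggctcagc
Hsp90b1 held 2 matches, whose leftmost bases lay at positions -212 and -107 from the start, Creld2 had 1 at -126 and Calr 1 at -162. Promoters were matched for 34 of the 41 genes, 15 that rose and 19 that fell, and the motif search covered the 250 bases before and 50 after each start. This element occurred in 39 of 32851 promoters (0.119%). It was in 3 of the 15 genes that rose, in 0 of the 19 that fell and in 10 of the 33 members of the ER list with a promoter. Of the 22 tested genes in the genome with the element, 15 were positive, the 3 named ones rose and 0 fell, with a median change of 0.11. Hspa5, Pdia6 and Derl3 are among the 19 that did not pass. The element is known from promoters of ER chaperones.

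Cytosolic chaperones and their helpers formed the other group. In a list of 29 heat shock genes 3 rose, 0 fell and 26 did not pass, and all 29 were positive with a median of 0.17 (0.26 in Model, 0.11 in Treatment). The share that passed was 10.3%, against 0.220% of all 18600 genes tested, of which 8787 were positive. In DESeq2 9 rose and 0 fell, in limma-voom 2 rose and 0 fell, and with FPKM 1 rose and 0 fell. Stip1 hands proteins from Hsp70 to Hsp90, Hsph1 exchanges the nucleotide of Hsp70, and Hspb1 binds unfolded proteins without using ATP. Stip1 was at 128, 121, 128 and 120 CPM in Control, at 180, 166, 161 and 180 CPM in Model and at 151, 144, 174 and 154 CPM in Treatment. Each stressed library exceeded each Control library, and Treatment replicate 2 was the lowest stressed one. Stip1 rose by 0.40 ± 0.06 (edgeR, adjusted p = 0.00924).

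Hspb1 had the largest rise of the 41 genes, at a low level. It stood at 4.08, 3.22, 2.68 and 2.74 CPM in Control, at 4.18, 5.62, 4.89 and 7.64 CPM in Model and at 5.64, 7.25, 8.74 and 5.69 CPM in Treatment. The groups did not overlap, although Model replicate 1 exceeded Control replicate 1 only narrowly. The change was 0.95 ± 0.18 (edgeR, adjusted p = 0.0484), with 0.81 in Model and 1.1 in Treatment. Without Treatment replicates 2 and 3 together, Hspb1 gave 0.82 and did not pass (edgeR, adjusted p = 0.0548). Hsph1 rose by 0.39 ± 0.07 (edgeR, adjusted p = 0.0414) and went from 241 to 273 CPM in Control to 279 to 415 CPM in the stressed libraries. The inducible Hsp70 genes, chosen after their values were seen, did not pass. Hspa1b differed by 0.73 ± 0.20 (edgeR, adjusted p = 0.128) and Hspa1a by 0.42 ± 0.17 (edgeR, adjusted p = 0.303). Hspa1b was at 37.6 CPM in Model replicate 4 but at 10.6 CPM in Treatment replicate 2, within the Control range of 10.5 to 13.8 CPM. Hspa1a and Hspa1b are close copies of each other, and reads may be divided between them by the counting.

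Heat shock factor binds arrays of inverted GAA units. The letters GAANNTTC, which read the same on both strands, hold only a pair of such units. The promoter of Hspb1 (250 bases before the RefSeq start, GRCm38.p6, chr5:135887669-135887918, plus strand) is shown with its 2 matches in capitals.
Hspb1: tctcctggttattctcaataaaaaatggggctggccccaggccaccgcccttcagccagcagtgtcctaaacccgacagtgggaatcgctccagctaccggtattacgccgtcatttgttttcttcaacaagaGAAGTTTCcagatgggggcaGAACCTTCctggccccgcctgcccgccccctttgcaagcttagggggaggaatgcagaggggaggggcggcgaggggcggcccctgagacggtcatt
The matches began at positions -117 and -97. Such a short motif is common: 2582 of 32851 promoters (7.86%) held it. It occurred in 3 of the 15 genes that rose (Homer1, Hspb1 and Hsph1), in 1 of the 19 that fell (Col4a5) and in 12 of the 23 heat shock genes with a promoter. The cyclic AMP response element TGACGTCA (1.79% of promoters) and the D-box TTATGTAA (0.938%) occurred in 0 of these 34 promoters. The E-box CACGTG (7.15%) was in 2 that rose and 1 that fell, and the AP-1 element TGANTCA (7.81%) was in Sgsm1 alone. In these 34 promoters no match of one motif overlapped one of another.

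Genes that neurons switch on with activity were a further group in which some members rose. Of 39 measured immediate early and activity genes 4 rose, 0 fell and 35 did not pass. Here too 10.3% passed, where 0.220% of all genes tested did. The median was 0.11 with 25 positive and 14 negative members (0.05 in Model and 0.14 in Treatment), and in DESeq2 8 rose and 0 fell. In limma-voom 2 rose and 0 fell, and with FPKM 3 rose and 0 fell. Fosb yields a long-lived protein with repeated stimulation, Egr3 is a zinc finger factor, Homer1 is a scaffold of the postsynapse whose short form appears with activity, and Nptx2 is a secreted pentraxin that gathers AMPA receptors. Fos, Arc and Npas4, the classic markers of recent activity, gave 0.21 ± 0.24, -0.06 ± 0.10 and -0.09 ± 0.16, with edgeR adjusted p of 0.764, 0.835 and 0.855. The value of Npas4 averages opposite signs, -0.45 in Model and 0.27 in Treatment. Treatment minus Model was 0.72 for Npas4 (95% interval 0.32 to 1.11; edgeR, adjusted p = 0.0588).

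Fosb, on chromosome 7 from 19036621 to 19043976 (GRCm39), stood at 4.18, 5.90, 5.82 and 5.68 CPM in Control. It stood at 8.81, 11.0, 9.32 and 10.3 CPM in Model and at 9.95, 10.8, 8.53 and 8.96 CPM in Treatment. The gap between the groups was wider than the spread within any of them. Fosb rose by 0.84 ± 0.11 (edgeR, adjusted p = 0.00718), by 0.87 in Model and 0.82 in Treatment. Egr3 was at 88.0, 94.6, 92.9 and 92.8 CPM in Control, at 109, 128, 131 and 152 CPM in Model and at 163, 138, 127 and 147 CPM in Treatment. Control was tight and the stressed libraries were spread widely above it. The change of Egr3 was 0.57 ± 0.08 (edgeR, adjusted p = 0.00924). Homer1 was at 84.2, 87.3, 99.1 and 87.1 CPM in Control, at 111, 140, 143 and 182 CPM in Model and at 169, 117, 112 and 127 CPM in Treatment. It rose by 0.62 ± 0.12 without overlap (edgeR, adjusted p = 0.0484). The counts are per gene, so the short form of Homer1 was not separated. Nptx2 rose by 0.65 ± 0.12 (edgeR, adjusted p = 0.0484), and here Model replicate 1, at 19.6 CPM, lay within the Control range of 16.4 to 21.8 CPM. Inhba, a subunit of activin chosen after its values were seen, differed by 0.74 ± 0.15 without overlap (edgeR, adjusted p = 0.0603).

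**Figure D2:**
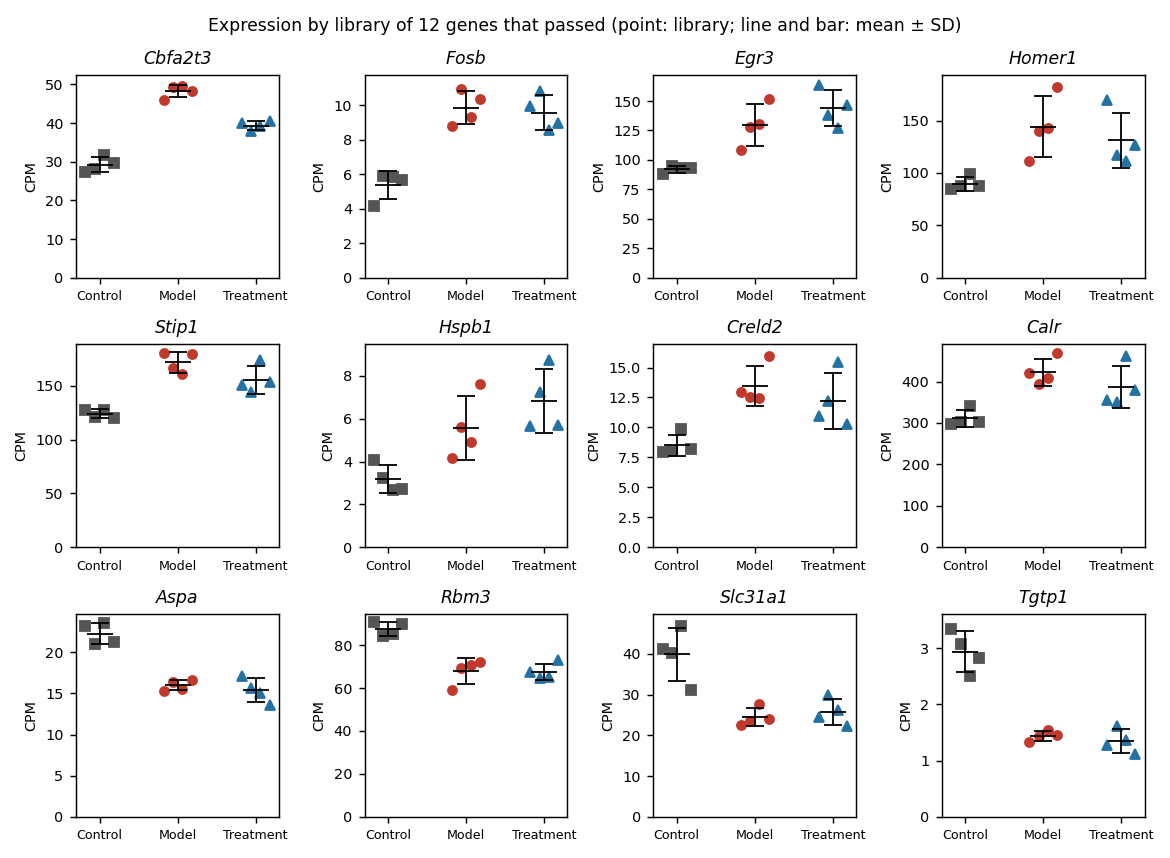
Expression in CPM of 12 of the 41 genes in the 4 libraries of each group, with the mean and SD as a line and bars. In each of these 12 genes all 8 stressed libraries lie above (first 8 panels) or below (last 4 panels) the 4 Control libraries, as the rule by which they were named requires.

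Cbfa2t3, a transcriptional corepressor that recruits histone deacetylases, had the smallest p of all genes. It lies on chromosome 8 from 123351880 to 123425848 (GRCm39). Its levels were 27.5, 28.2, 31.7 and 29.7 CPM in Control, 46.0, 49.3, 49.5 and 48.3 CPM in Model and 40.1, 37.9, 39.1 and 40.5 CPM in Treatment. The 3 groups formed separate bands, with Treatment between Control and Model. Cbfa2t3 rose by 0.58 ± 0.05 in the stressed groups (edgeR, adjusted p = 1.75e-04), and it was the 1 gene that passed whichever library was left out. Treatment minus Model was -0.29 ± 0.06 (edgeR, adjusted p = 0.0259). Of 11 measured genes of related corepressors and their partners, 1 rose, 0 fell and 10 did not pass, with a median of 0.10. Its paralog Runx1t1, named outside the rule, differed by 0.25 (edgeR, adjusted p = 0.151), and its stressed and Control libraries did not overlap. The same held for 3 of the 11 genes in all, and for 1.63% of all genes tested.

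Other genes that rose encode cytoskeletal proteins, regulators of small GTPases and a transcription factor. Fmnl1, a formin that acts on actin, rose by 0.28 ± 0.05 (edgeR, adjusted p = 0.0393). In 40 genes of glutamate receptors and postsynaptic scaffolds, Homer1 and Nptx2 rose, 0 fell and 38 did not pass (median 0.06). A further 4 genes that rose are named although they fall outside the rule for named genes: Rasl10a (0.51), a small GTPase, Etv5 (0.32), a factor of the ETS family, Sgsm1 (0.30), and Ina (0.24), a neuronal intermediate filament. Their adjusted p values in edgeR lay between 0.0387 and 0.0484.

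Aspa, a gene of oligodendrocytes, the cells that make myelin, had the smallest p of the genes that fell. It encodes the enzyme that splits N-acetylaspartate, a source of acetate for myelin lipids, and Opalin, which fell too, encodes a membrane protein of myelinating cells. Aspa stood at 23.2, 21.1, 23.5 and 21.3 CPM in Control, at 15.3, 16.4, 15.6 and 16.6 CPM in Model and at 17.2, 15.6, 15.1 and 13.6 CPM in Treatment. All stressed libraries were below all Control libraries, and both stressed groups lay at about the same level. It fell by 0.50 ± 0.07 (edgeR, adjusted p = 0.00718) and passed in 11 of 12 fits without 1 library. Opalin changed by -0.34 ± 0.07 (edgeR, adjusted p = 0.0484) and passed in 1 of those 12. The wider list did not follow: of its 29 measured members 0 rose, 2 fell and 27 did not pass, 14 were positive and 15 negative, and the median was 0.00 (-0.09 in Model, 0.04 in Treatment). Lss, which forms lanosterol in cholesterol synthesis, changed by -0.32 ± 0.06 (edgeR, adjusted p = 0.0484). It was the 1 gene of 27 in the cholesterol list that fell; 0 rose, 26 did not pass and the median was -0.05.

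Rbm3, an RNA-binding protein induced by mild cold, was at 90.9, 84.5, 85.2 and 89.9 CPM in Control. It was at 59.2, 69.3, 71.0 and 72.1 CPM in Model and at 67.7, 64.5, 65.4 and 73.0 CPM in Treatment. The stressed groups shared 1 range below Control. Rbm3 fell by 0.37 ± 0.06 (edgeR, adjusted p = 0.0171), by 0.37 in each stressed group. Its relative Cirbp, chosen after its values were seen, differed by -0.34 ± 0.07 (edgeR, adjusted p = 0.0576), with Treatment replicate 4 at 52.1 CPM inside the Control range of 48.6 to 56.1 CPM. In the list of 46 splicing regulators and cold-inducible proteins 0 rose, 1 fell and 45 did not pass, and the median was 0.00.

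Tgtp1, an interferon-inducible GTPase, was low in all libraries: 3.35, 3.08, 2.50 and 2.82 CPM in Control, 1.33, 1.43, 1.54 and 1.46 CPM in Model and 1.28, 1.62, 1.36 and 1.12 CPM in Treatment. The lowest Control library was well above the highest stressed one. It fell by 1.08 ± 0.15 (edgeR, adjusted p = 0.00939). Tgtp1 has a near-identical neighbour, Tgtp2, to which reads may be assigned (-0.50 ± 0.32, edgeR adjusted p = 0.524), so the value of either is uncertain. Of 33 measured genes of antigen presentation and the interferon response, a list that does not hold Tgtp1, 0 rose and 0 fell in edgeR and in DESeq2, with 4 at an unadjusted p under 0.05 in each (median -0.02). Rpl39, a protein of the large ribosomal subunit with many pseudogene copies, fell by 0.58 ± 0.10 (edgeR, adjusted p = 0.0403), by 0.30 in Model and 0.87 in Treatment. Of 81 cytosolic ribosomal protein genes 0 rose, 1 fell and 80 did not pass, 79 were negative and the median was -0.16. In edgeR 36 of them had an unadjusted p under 0.05. In DESeq2 6 fell and 0 rose, and in limma-voom and with FPKM 1 fell and 0 rose. Their score lay between 0.06 and 0.18 in Control, -0.10 and 0.09 in Model and -0.27 and 0.07 in Treatment, so the groups overlapped.

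Of the remaining genes that fell, Zfp46, a zinc finger protein, changed by -0.40 ± 0.07 (edgeR, adjusted p = 0.0324), Filip1, which binds filamin A, by -0.46 ± 0.09 and S100a1, a calcium-binding protein, by -0.34 ± 0.07, both with an edgeR adjusted p of 0.0484. Outside the naming rule, Rsrp1 fell by 0.36, Stxbp2, a protein of vesicle fusion, by 0.30 and the noncoding RNAs Lncppara, Atcayos and ENSMUSG00000132705 by 0.88, 0.76 and 0.75. Lncppara and Atcayos are named after neighbouring genes, and no source used here says whether the counting kept the strand, so reads of overlapping genes cannot be told apart.

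Genes of the choroid plexus, the epithelium that makes cerebrospinal fluid and adjoins the hippocampus, had the lowest median of any list. All 28 measured members of the list were negative, 2 fell, 0 rose and 26 did not pass, and the median was -1.05 (-1.12 in Model, -0.95 in Treatment). In DESeq2 13 fell and 0 rose. In limma-voom and with FPKM 0 passed, with 28 and 26 members at an unadjusted p under 0.05. Abca4, a lipid flippase, was at 16.7, 24.8, 23.7 and 9.57 CPM in Control, at 7.21, 5.78, 10.1 and 6.18 CPM in Model and at 5.74, 12.5, 7.98 and 5.6 CPM in Treatment. Control replicates 1 to 3 were high, Control replicate 4 was in the stressed range, and Treatment replicate 2 was the highest stressed library. Its change was -1.29 ± 0.24 (edgeR, adjusted p = 0.0484). Steap1, a member of a family named for metalloreductases, changed by -1.40 ± 0.26 with the same adjusted p. Ttr, which encodes transthyretin, and the secreted protein Sostdc1 were chosen after their values were seen; they gave -1.18 ± 0.30 (edgeR, adjusted p = 0.109) and -1.12 ± 0.22 (edgeR, adjusted p = 0.0509).

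The choroid plexus list also varied among libraries of the same group. Its mean score, in log2 units around the average library, was 0.72, 1.06, 1.09 and -0.25 in Control, -0.52, -0.35, -0.06 and -0.49 in Model and -0.82, 0.44, -0.06 and -0.76 in Treatment. The summed level of its genes lay between 1585 and 4551 CPM in Control, 1331 and 1850 CPM in Model, and 1127 and 2817 CPM in Treatment. With this score as a covariate 0 genes passed in edgeR, and 1359 had an unadjusted p under 0.05. The score itself differed between Control and most stressed libraries, so this fit loses precision and cannot separate the score from stress. The sizes changed unevenly among the 41 genes. Abca4 went from -1.29 to -0.29 and Steap1 from -1.40 to -0.47, but both belong to the list behind the score, so their smaller values are built in. The noncoding RNA 2900040C04Rik, named outside the rule, went from -1.62 to -0.50. Sulf1, an extracellular sulfatase, went from -1.09 to -0.17 and the growth factor Igf2 from -0.84 to -0.25. The copper importer Slc31a1 went from -0.67 to -0.33. Fosb was 0.89, Creld2 0.73, Hspb1 1.16, Cbfa2t3 0.56, Aspa -0.48 and Rbm3 -0.43 in that fit, near their values without the covariate or beyond them. None of these passed there (edgeR, adjusted p from 0.0626 to 0.274). Others were smaller in part: Homer1 was 0.50, Egr3 0.49, Hsph1 0.32 and Col4a5 -0.40. The part of choroid plexus in any of these changes was not tested further.

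**Figure D3:**
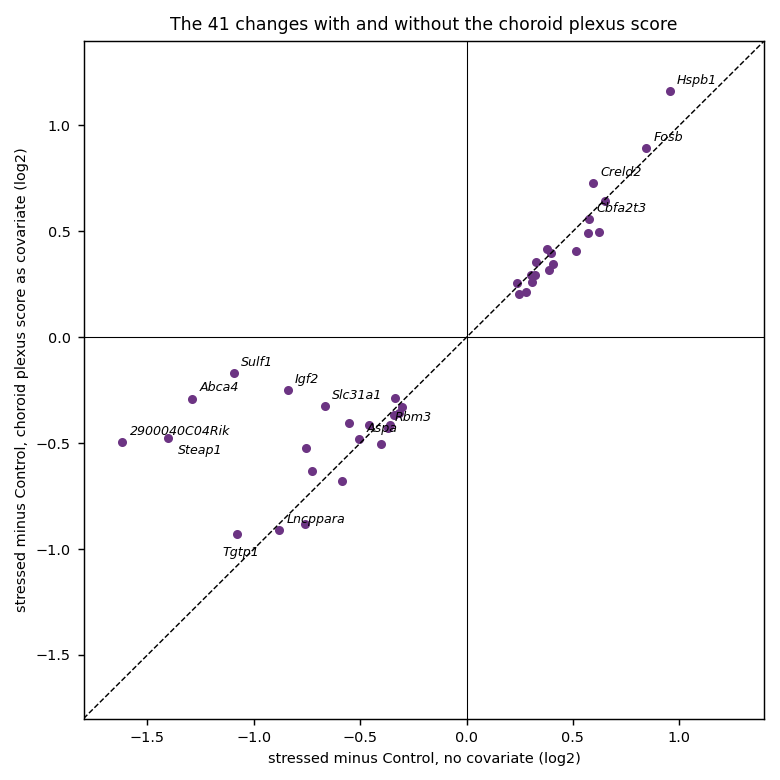
Log2 change of the 41 genes, stressed minus Control, without (horizontal) and with (vertical) the choroid plexus score as a covariate; the dashed line marks equal values. Sulf1, Abca4, Igf2, Steap1, 2900040C04Rik and Slc31a1 move towards 0, whereas Fosb, Cbfa2t3, Aspa and Rbm3 stay near the line. Abca4 and Steap1 belong to the list behind the score, and 0 of the 41 genes passed with the covariate.

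Slc31a1 without the covariate was at 41.2, 40.2, 46.9 and 31.1 CPM in Control, at 22.6, 23.6, 27.6 and 24.1 CPM in Model and at 24.5, 29.8, 26.2 and 22.3 CPM in Treatment. Control replicate 4 was the lowest Control library and Treatment replicate 2 the highest stressed one, as in the choroid plexus score, but the groups did not overlap (-0.67 ± 0.10, edgeR adjusted p = 0.00939). Sulf1 and Igf2 did overlap, with Control replicate 4 at 17.7 and 82.7 CPM. Sulf1 and Col4a5, a basement membrane collagen (-0.55 ± 0.11, edgeR adjusted p = 0.0484), were the 2 of 41 extracellular matrix genes that fell, and 0 rose (median -0.11). Igf2 was the 1 gene that fell of 26 in the list of leptomeninges and fibroblasts (median -0.09), and 0 rose. Of 28 genes of ependyma and motile cilia 0 passed in edgeR or DESeq2, 9 had an unadjusted p under 0.05 in each, and the median was -0.31. Of the 6 measured red blood cell genes all were negative (median -0.47) and Hbb-bt, a beta globin, fell by 0.73 ± 0.14 (edgeR, adjusted p = 0.0484). Its near-identical neighbour Hbb-bs differed by -0.54 (edgeR, adjusted p = 0.0991), and reads may be assigned to either. The part of blood left in the tissue in that change was not tested.

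**Figure D4:**
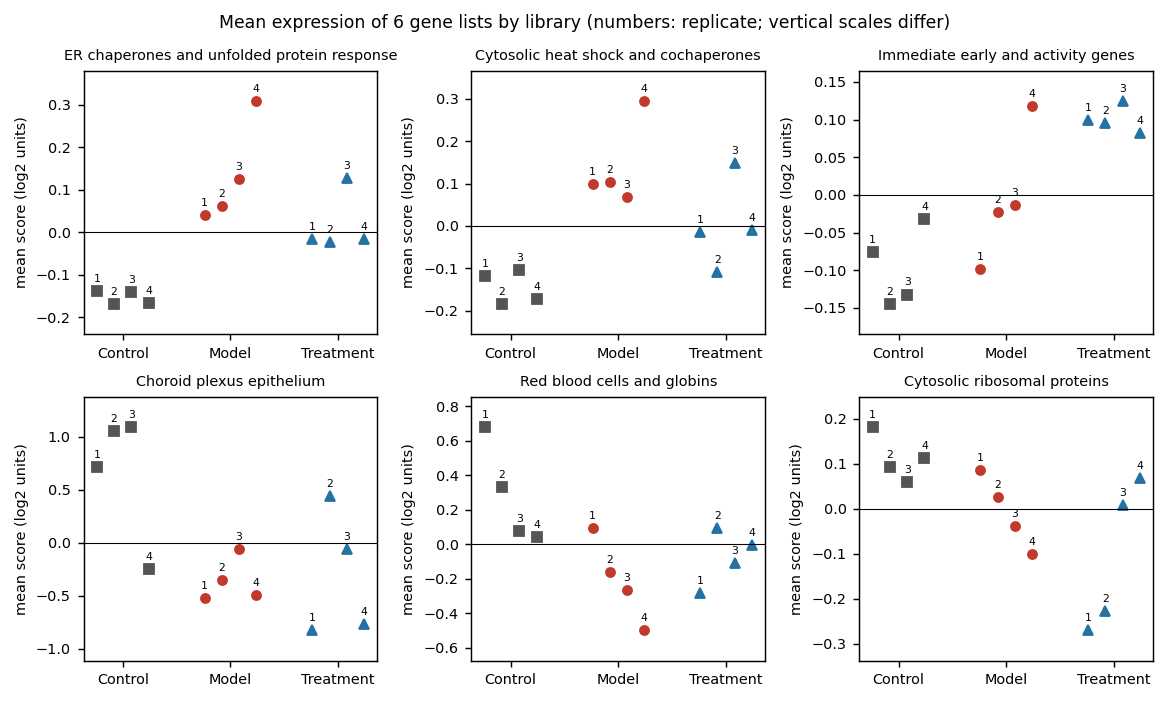
Mean expression score of 6 gene lists in each library, as a difference on the log2 scale from the average library; small numbers give the replicate. The ER score of every stressed library is above the Control libraries, whereas in the choroid plexus panel Control replicate 4, at -0.25, lies among the stressed libraries and Treatment replicate 2 reaches 0.44.

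In the same plots, the ER score ranged from -0.17 to -0.14 in Control, from 0.04 to 0.31 in Model and from -0.02 to 0.13 in Treatment. The cytosolic heat shock score ranged from -0.18 to -0.10 in Control, from 0.07 to 0.29 in Model and from -0.11 to 0.15 in Treatment, where replicate 2 lay within the Control range. The immediate early score was -0.14 to -0.03 in Control, -0.10 to 0.12 in Model and 0.08 to 0.12 in Treatment. The Treatment libraries were thus all above Control in this score, and those of Model were spread over both ranges.

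Lists of hippocampal fields described what else differed in the tissue sampled. All 15 CA1 pyramidal cell markers were positive (median 0.19); 0 passed in edgeR, where 3 had an unadjusted p under 0.05, and 1 in DESeq2. Dentate granule cell markers had medians of 0.09 in Model and -0.25 in Treatment, and neocortical markers -0.02 and 0.38, with 0 members past the threshold in the pooled comparison in edgeR. An unadjusted p under 0.05 was seen for 6 dentate and 4 neocortical markers, and in DESeq2 2 and 3 passed. In these lists the pooled median thus averages unlike groups. With the neocortical score as a covariate 7 genes passed, and with the score of thalamus and habenula 13. The part of these tissues in the changes was not tested further.

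Because stress was applied with and without poricoic acid A, the difference between the stressed groups was tested in the 41 genes. In 5 of them Treatment differed from Model at an adjusted p under 0.05, where this holds for 350 of all genes tested (1.88%). Cbfa2t3 (-0.29 ± 0.06) and Rpl39 (-0.58 ± 0.12) were lower in Treatment, and Rsrp1 (0.36 ± 0.06), Lncppara (1.06 ± 0.18) and Stxbp2 (0.33 ± 0.07) were higher (edgeR, adjusted p from 0.0148 to 0.0317). For Cbfa2t3, Rsrp1, Lncppara and Stxbp2 the Treatment level thus lay nearer to Control than the Model level did, whereas for Rpl39 it lay farther away. In Lncppara, for instance, Model was at 2.37 to 3.69 CPM, Treatment at 5.43 to 7.33 CPM and Control at 6.30 to 9.56 CPM.

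A p above the threshold does not show that both groups acted alike, so the 95% interval of the difference was also read. In 34 of the 41 genes, 18 that rose and 16 that fell, it lay within plus or minus the pooled change itself, against 375 of all genes tested (2.02%). Passing in the pooled comparison favours such genes, so the share is a description. The bound is also loose: the 34 include Cbfa2t3, in which Treatment differed from Model (edgeR, adjusted p = 0.0259). They also include Stip1, Hsph1, Rasl10a, Sgsm1, Etv5, Lss, Col4a5 and Opalin, whose intervals leave out 0. For Fosb the difference of Treatment minus Model was -0.04 (interval -0.30 to 0.22) beside a pooled change of 0.84. For Aspa it was -0.06 (-0.23 to 0.11) beside -0.50, and for Egr3 0.15 (-0.04 to 0.34) beside 0.57. Rbm3 had -0.00 (-0.15 to 0.14) beside -0.37. Fosb, Aspa, Egr3 and Rbm3 are examples from the 34, and in each the change had the same direction with and without the compound. Their intervals still allow differences in size, up to 0.34 for Egr3. The 7 genes in which the interval reached beyond the pooled change were Rsrp1, Lncppara, Zfp46, Rpl39, Atcayos, Hsp90b1 and Stxbp2.

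**Figure D5:**
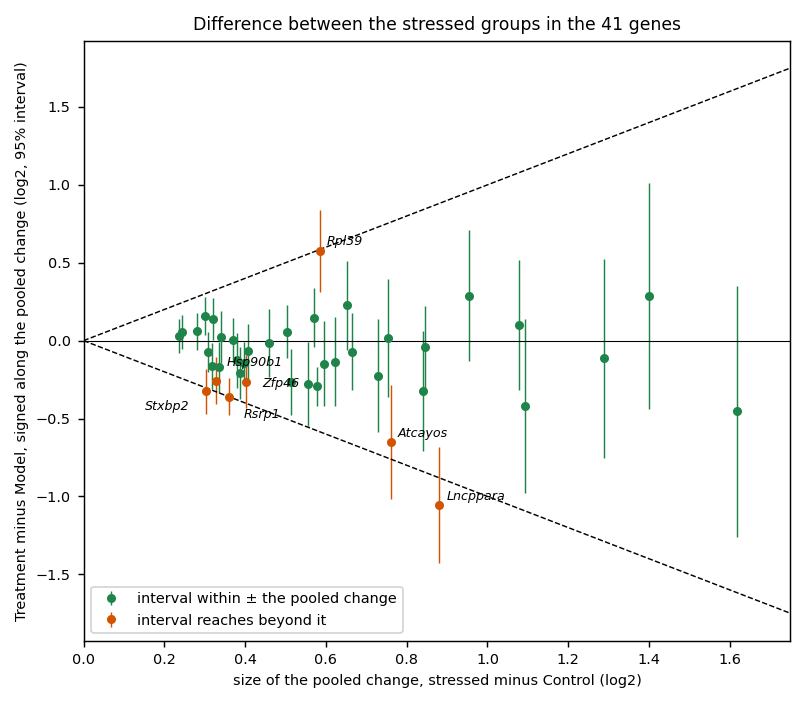
Treatment minus Model in the 41 genes, with its 95% interval, signed so that positive values mean a larger change in Treatment, against the size of the pooled change (both log2). Between the dashed lines the difference is smaller than the pooled change; the intervals of 34 genes lie within the lines and those of the 7 labelled genes do not.

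Genes that research on stress and depression often measures were given whether or not they passed. Of 22 such genes 18 were measured above the filter and 0 passed in edgeR, where 3 had an unadjusted p under 0.05; in DESeq2 2 passed, Htr1a and Crhr1. Slc6a4, Tnf, Il1b and Il6 had too few counts to be tested. Htr1a, the serotonin 1A receptor, came nearest: it was at 29.9, 30.1, 33.1 and 33.8 CPM in Control, at 41.2, 40.7, 39.2 and 44.1 CPM in Model and at 35.0, 35.4, 38.3 and 35.1 CPM in Treatment. All stressed libraries were above Control, those of Treatment by less (0.28 ± 0.06, edgeR adjusted p = 0.0547). Crhr1, a receptor of corticotropin-releasing hormone, differed by 0.41 ± 0.12 (edgeR, adjusted p = 0.148) and Aif1, a microglial marker, by -0.48 ± 0.17 (edgeR, adjusted p = 0.237).

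The glucocorticoid receptor Nr3c1 differed by 0.09 ± 0.06 and the mineralocorticoid receptor Nr3c2 by -0.09 ± 0.08, with edgeR adjusted p of 0.561 and 0.677. Fkbp5 and Sgk1, targets of these receptors, gave 0.06 ± 0.07 and 0.04 ± 0.06 (edgeR, adjusted p = 0.780 and 0.831). For Fkbp5 and Nr3c2 these values also average opposite signs. Fkbp5 was at 0.23 in Model and -0.11 in Treatment, and Treatment minus Model was -0.34 (95% interval -0.52 to -0.16; edgeR, adjusted p = 0.0530). Nr3c2 was at 0.06 in Model and -0.23 in Treatment, with a difference of -0.29 (95% interval -0.49 to -0.10; edgeR, adjusted p = 0.108). In the list of 26 glucocorticoid receptors and targets 0 rose and 0 fell in edgeR, with 9 at an unadjusted p under 0.05 and a median of 0.01, while in DESeq2 2 rose and 2 fell. The growth factor gene Bdnf differed by -0.08 ± 0.10 (edgeR, adjusted p = 0.801) and the immature neuron marker Dcx by -0.15 ± 0.09 (edgeR, adjusted p = 0.491). Gfap, an astrocyte filament, gave -0.14 ± 0.08 (edgeR, adjusted p = 0.477). Crh, which encodes corticotropin-releasing hormone, was low, at 1.02, 1.30, 0.41 and 1.68 CPM in Control, at 1.07, 0.72, 0.65 and 2.02 CPM in Model and at 3.13, 1.82, 1.92 and 2.97 CPM in Treatment. Model overlapped Control and every Treatment library was above it, with 0.00 in Model, 1.12 in Treatment and 0.56 ± 0.34 pooled (edgeR, adjusted p = 0.508 for the pooled change). Treatment minus Model was 1.13 for Crh (95% interval 0.31 to 1.94; edgeR, adjusted p = 0.129). Ntrk2, the receptor of the Bdnf protein, gave 0.10 ± 0.05 and the growth factor gene Igf1 0.17 ± 0.09, with edgeR adjusted p of 0.415 and 0.447. The inflammasome gene Nlrp3 and the synaptic kinase gene Camk2a gave 0.23 ± 0.26 and 0.02 ± 0.06, with edgeR adjusted p of 0.749 and 0.95. Of 23 circadian clock genes 0 passed in edgeR, with 11 at an unadjusted p under 0.05 and a median of 0.05, and in DESeq2 1 fell.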

How the data were processed

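Messenger RNA of the hippocampus was sequenced in 12 libraries. The submitters' processing notes list Salmon 1.10.1 and STAR 2.7.10a, FastQC 0.12.1, Trim Galore 0.6.7 and cutadapt 3.4, and the mm39 and GRCm39 builds, without a role for each. The deposited table holds the authors' estimated counts per gene, unscaled (28.8% of nonzero values are not whole within 1e-06), and deposited FPKM, scaled by the authors for length and library total. Of 78298 genes, 21883 have no symbol.

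Estimated counts were rounded and fitted in edgeR 4.0.16 (R 4.3.3): filterByExpr left 18600 genes, TMM scaled the library sizes, and all 12 libraries entered 1 quasi-likelihood model with 3 group means. The contrast was the average of the Model and Treatment means minus Control, with Benjamini-Hochberg adjustment over all genes and a threshold of 0.05. CPM use TMM-scaled totals, and list scores average log2 CPM (prior count 2). Intervals are at a level of 95% and cover the spread between libraries.

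The comparison, the gene lists and the naming rule were chosen with earlier results of these data known. Named are, per direction, up to 12 genes that passed with a mean of at least 1 CPM and no overlap, by the smaller of both groups' changes; up to 3 members per list that passed; and 22 fixed genes. Some genes that entered the fit and the counts are not reported here. Lists are described by counts and medians, without a test. Promoters are RefSeq's (GRCm38.p6), a build other than that of the counts.

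Simulated counts with known changes served to test the fit. The biological coefficient of variation was 10.7%. Alternatives were RLE scaling, DESeq2 1.42.0, limma-voom (limma 3.58.1), other filters, 2 means, robust estimation, a replicate block, libraries left out, tissue scores as covariates, a test against a 1.2-fold change, and FPKM (at least 0.5 in 4 libraries; pseudocounts 0.1 and 1). Other tools were the R package data.table (version 1.17.8), Python 3.11.15 and matplotlib 3.10.9.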

Additional observations from a re-analysis of the deposited data

Results flagged for a closer look

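Among 150 groups of 4 libraries checked (genes that passed and list scores), 15 held a library apart from the other 3 (14 are given here), by Dixon's ratio at its 95% critical value; chance flags about 1 in 20. Model replicate 4 was the high library for Hsph1 (415 CPM), Hsp90b1 (441 CPM), Etv5 (87.0 CPM), Dnajb11 (53.9 CPM) and Creld2 (16.0 CPM), and for the cytosolic heat shock score (0.29). Treatment replicate 3 was high in the ER chaperone score (0.13) and low in Lss (31.9 CPM). Control replicate 3 was high in Calr (342 CPM), Opalin (38.8 CPM) and Creld2 (9.84 CPM). Control replicate 1 was low in Fosb (4.18 CPM), Control replicate 4 high in Dnajb11 (41.9 CPM) and Model replicate 1 high in Hbb-bt (10.9 CPM).

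In 5 of the 41 genes Treatment differed from Model in edgeR: Cbfa2t3 (-0.29), Rsrp1 (0.36), Lncppara (1.06), Rpl39 (-0.58) and Stxbp2 (0.33). No group received the compound without stress. A changed effect of stress therefore cannot be told apart from an effect of the compound itself.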

How the results depend on the processing

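The count of 41 genes (19 higher, 22 lower) was 35 with RLE scaling, 49 with a stricter filter and 39 with robust estimation. It was 420 in DESeq2 (261 higher, 159 lower), 19 in limma-voom, 652 without a filter (299 higher, 353 lower), and 8 when the stressed libraries shared 1 mean. It was 1 against a 1.2-fold change, 10 with FPKM at either pseudocount and 11 with FPKM unfiltered. With the scores of choroid plexus, neocortex and thalamus as covariates it was 0, 7 and 13. Leaving out 1 library gave 1 to 109, and leaving out Treatment replicates 2 and 3 gave 138. The cause was not tested. The spread between libraries (biological coefficient of variation 10.7%) and counts of a few CPM limit the precision for genes such as Tgtp1.

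The 41 genes kept their direction in each alternative that tested them; the stricter filter tested 40, without 2900040C04Rik. Cbfa2t3 passed in all 12 fits without 1 library, and 13 genes in at least 6 of them. Of 1926 values of named genes under alternatives, 1257 kept direction and side of the threshold, 600 no longer passed, 58 now passed and 11 reversed. Reversed were genes that had not passed: without Control replicate 1 Arc (0.031), Camk2a (-0.030) and Fkbp5 (-0.015); without Model replicate 3 Camk2a (-0.015). Without 1 library Arc ranged from -0.13 to 0.031, Camk2a from -0.030 to 0.051 and Fkbp5 from -0.015 to 0.131. With the thalamus score Camk2a gave -0.000177, with the neocortex score Nr3c2 0.037, and with the choroid plexus score Crh -0.17 and Ttr 0.17. Igf1 gave -0.038 in FPKM with a pseudocount of 0.1, filtered or not, and -0.036 with a pseudocount of 1.

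List medians named here kept their sign with RLE scaling, DESeq2, limma-voom and FPKM, apart from those of myelin, splicing, circadian and glucocorticoid genes, which lay near 0.

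The replicate numbers did not pair the libraries: 1 of 12 same-numbered pairs had a correlation over 0.1 (range -0.04 to 0.11), and 4 of 12 libraries correlated best with their own number. With the replicate block 111 genes passed (43 higher, 68 lower), 39 of the 41 among them.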
